A study of Homo sapiens with 15 samples.

Results

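The mucin gene cluster at 11p15 is a run of 4 genes, MUC6, MUC2, MUC5AC and MUC5B, that encode secreted gel-forming mucins. It was examined as the hg19 interval chromosome 11, 1000000 to 1300000, in which the genes lie in that order, and its members were all peaks that shared at least 1 bp with the interval. There were 68 such peaks among 647617 in the 4 peak lists: 32 of 252459 in H3K4ox replicate 1, 33 of 246967 in H3K4ox replicate 2, 1 of 38584 for H2A.Z and 2 of 109607 for RUVBL2. The interval is of interest because it holds a site near the head of both H3K4ox lists by score. It was thus selected on the H3K4ox scores, and what they show below is a description with no test. The lists come from ChIP-seq of MDA-MB-231, an established triple-negative breast cancer cell line with mesenchymal traits. The antibodies were a handmade one to H3K4ox (2 libraries) and commercial ones to H2A.Z (1 library) and RUVBL2 (1 library), and the labels name no knockdown, treatment or time for these 4 samples. The other 11 of the 15 samples, namely 1 input, 8 RNA-seq and 2 ATAC-seq libraries, were not analysed here, so the expression of the mucins in these cells is not reported.

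Gel-forming mucins are very large glycoproteins that link into the polymers of mucus. MUC6 is made mainly by gastric glands, MUC2 by goblet cells of the intestine, MUC5AC by the gastric surface and the airways, and MUC5B by the airways and salivary glands. Each has cysteine-rich ends, through which the molecules join, and a middle part rich in proline, threonine and serine that carries the O-linked sugars. That middle part is built largely of tandem repeats encoded by a long central exon, so the genes hold long stretches of repetitive coding sequence. H3K4ox is histone H3 oxidised at lysine 4, a product of LOXL2, which the series title links to compaction of chromatin. H2A.Z is a histone variant, and RUVBL2 is an ATPase subunit of the complexes that place or remove it.

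Peaks were called by the authors for each library, and depth was unknown because the lists hold peaks and no reads. The labels do not say whether the H3K4ox libraries are biological or technical repeats, so the SD between them may be technical only, and H2A.Z and RUVBL2 had no replicate. Only the header lines of the H3K4ox lists name an input. Each peak has a score from the authors' caller, with a lowest value of 50 in each list and no stated unit. Scores of different antibodies are compared here only as ranks or values within a list. Scores of the H3K4ox replicates were also averaged and compared with each other as listed, without adjustment for depth. Regions that hold a peak of each H3K4ox replicate, after merging, are called shared regions; there were 26 in the mucin interval and 162645 in the genome.

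The best H3K4ox site of the interval lay at chromosome 11, 1092113 to 1094044, a region of 1932 bp. Its peak had a score of 3158 in replicate 1 and 3100 in replicate 2. In replicate 1 a single peak of the list scored higher. In replicate 2, 3 peaks scored higher and 17, this one included, shared the value 3100, so its exact place in that list is not defined. The value 3100 recurred in replicate 1, at 20 peaks, and was the highest score of the H2A.Z and RUVBL2 lists. By mean rank over both lists, with ties averaged, the site stood at place 2 of the 162645 shared regions, a place that depends on this handling of ties. It was narrower than most sites of that level: 21 of the best 100 shared regions were no wider, and their median width was 2745 bp. The site held no RUVBL2 and no H2A.Z peak. The nearest RUVBL2 peak lay 32967 bp above it and had a score of 60.4, and the nearest on the lower side was 91827 bp away. The nearest H2A.Z peak lay 45506 bp above it, with a score of 52.8. Lacking both was common at this level, since 52 of the best 100 shared regions (52.0%) held neither. Distance set it further apart for RUVBL2 than for H2A.Z: of the best 100 shared regions, this one included, 17 were at least as far from a RUVBL2 peak and 54 at least as far from an H2A.Z peak. No exon map or sequence of hg19 was used here, so the site could not be placed relative to the tandem repeat exons or assigned to 1 of the 4 genes. Whether reads from repeated sequence add to its score was not tested.

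**Figure D1:**
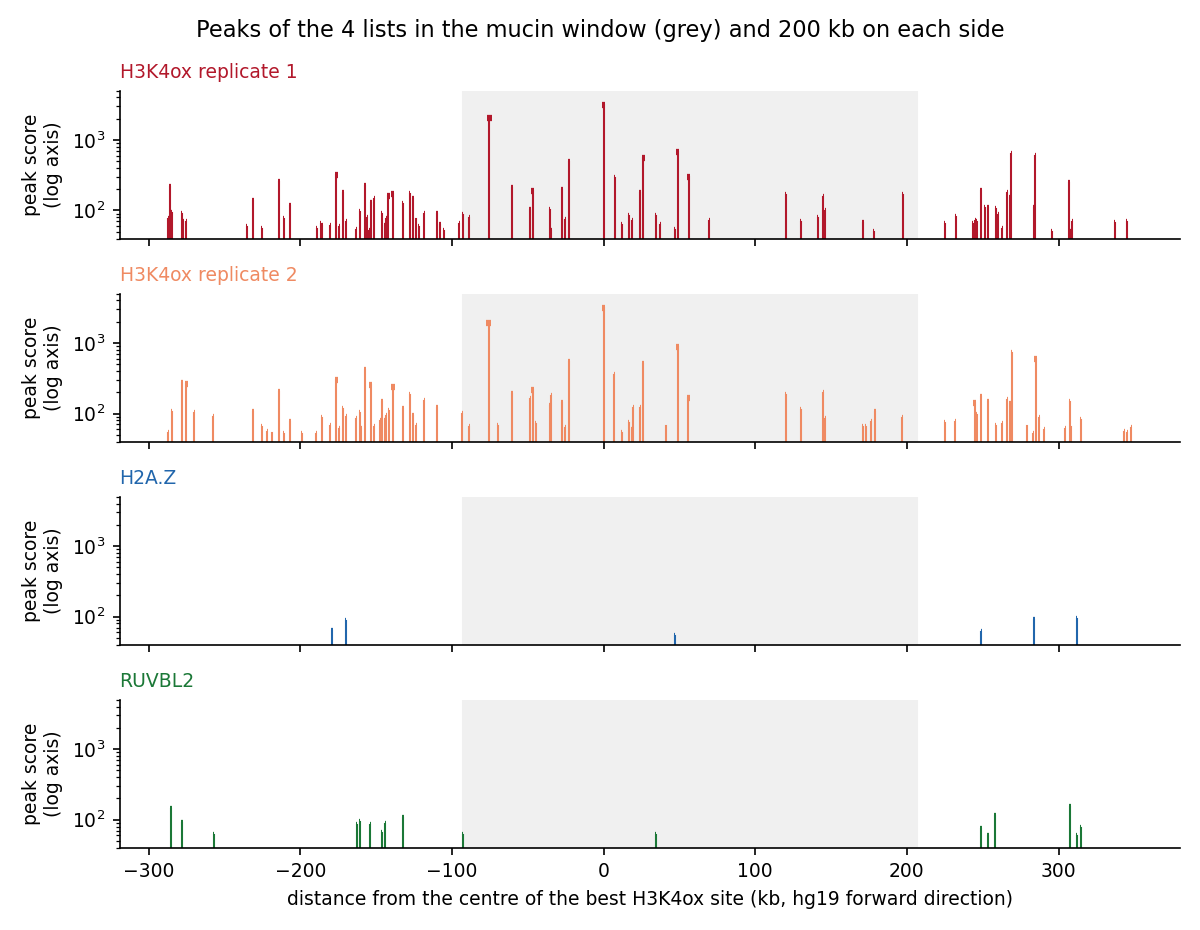
Peaks of the 4 lists in the mucin interval (grey) and 200 kb on each side; x is the distance in kb from the centre of the best H3K4ox site, y the authors' peak score on a log axis, and each horizontal mark spans the peak's width. The H3K4ox lists hold 32 and 33 peaks in the grey interval, H2A.Z 1 and RUVBL2 2, and the tallest H3K4ox peak stands at 0 kb in both replicates.

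A second strong site lay 75.6 kb below the best one, at 1015760 to 1019128. Its scores were 2048 in replicate 1 and 1885 in replicate 2, and it was the widest shared region of the interval, at 3369 bp. It stood at place 91 in the genome, so the interval held 2 of the 1000 best shared regions, and both replicates gave these 2 sites the same order. It too lacked RUVBL2 and H2A.Z, with the nearest RUVBL2 peak 15474 bp away. After these the scores dropped. The third site, at 1141013 to 1142748, scored 677 in replicate 1 and 888 in replicate 2. The fourth, at 1118190 to 1120096, scored 559 and 504 in the same order of replicates. The fifth, at 1069415 to 1070840, scored 483 and 538. These 5 sites were among the best 10000 shared regions, which are 6.15% of all. The sixth, at 1099604 to 1100797, lay next above the best site and scored 292 and 349.

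Sites 7 to 10 of the interval had mean scores between 175.4 and 229.7. They lay at 1148145 to 1150278, at 1045267 to 1047275, at 1032214 to 1033068 and at 1212637 to 1213569. Of the 26 shared regions, 6 had a mean score of 300 or more and 9 were under 100, and the median of the mean scores was 138.8. The interval thus combined 2 very strong sites with many much weaker ones. Without the best site, the median peak score was 97.9 in replicate 1 and 114.8 in replicate 2. Both were above the medians of the whole lists, 83.4 and 82.0, and leaving out 1 peak moves a median little. In replicate 1, 7 of 32 peaks were in the upper 10% of the list by score, and in replicate 2, 6 of 33.

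The replicates ordered the shared regions alike. Their scores had a Spearman correlation of 0.84 over the 26 regions, which share their libraries and are not independent replicates. The higher score exceeded the lower by a median of 1.19-fold, and replicate 1 was the higher in 15 regions and replicate 2 in 11. Because depth was unknown and the score has no stated unit, these comparisons only describe the scores as listed. The largest disagreement was at 1058185 to 1059098, which scored 51.2 in replicate 1 and 177.4 in replicate 2.

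**Figure D2:**
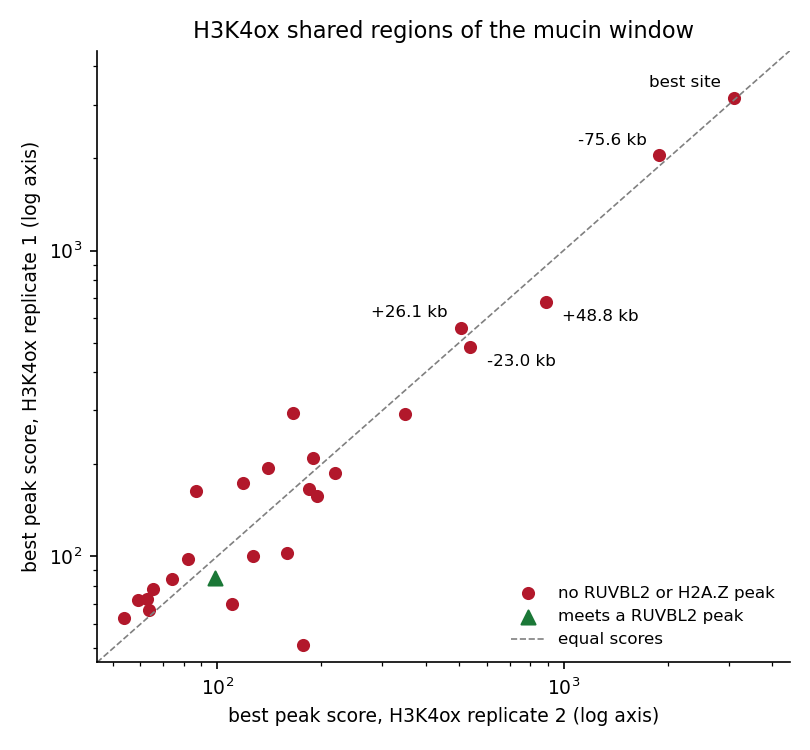
Best peak score in H3K4ox replicate 1 (y) against replicate 2 (x), both on log axes, for the 26 shared regions of the mucin interval. The dashed line marks equal scores as listed, not adjusted for depth, and labels give the distance from the best site. The best site (3158 and 3100) and the site at -75.6 kb (2048 and 1885) stand apart, and the single region that meets a RUVBL2 peak scores 85.0 and 98.6.

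Peaks of either H3K4ox list were found in the other more often than over the whole lists. In the interval 26 of 32 peaks of replicate 1 met a peak of replicate 2, against 67.8% in the whole list, and 26 of 33 peaks of replicate 2 met one of replicate 1, against 70.2%. The mean share was 80.0% ± 1.7 in the interval and 69.0% ± 1.7 over the whole lists (SD, n = 2). The mean share was 83.1% ± 0.9 in the 200 kb below the interval and 71.7% ± 3.1 in the 200 kb above it. These SDs come from 1 overlap counted from either list, so they measure no spread between replicates. No interval for counting error was computed for these shares, and the counts in the interval are small. Peaks found in a single replicate did not reach the scores of the best sites: the 6 found in replicate 1 alone scored 50.1 to 83.8, and the 7 found in replicate 2 alone scored 64.9 to 119.0, the highest of these equal to the median of the replicate 2 peaks of the interval.

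H3K4ox peaks were somewhat denser in the mucin interval than in the genome at large. The interval held 108.3 ± 2.4 H3K4ox peaks per Mb, against 89.3 ± 1.1 on chromosome 11 and 83.0 ± 1.3 over all chromosomes (SD, n = 2). They covered 11.4% ± 0.09 of the interval and 8.73% ± 0.36 of the genome (SD, n = 2). Along the interval they were uneven. Between 1100001 and 1150000 there were 11 peaks in replicate 1 and 10 in replicate 2. Between 1150001 and 1200000, by contrast, there was 1 in replicate 1 and none in replicate 2, and no shared region. No list had a peak from 1162908 to 1212636, a stretch of 49.7 kb. On chromosome 11, 130 of 16603 stretches without a peak of any list were at least that long, this one included. No map of assembly gaps of hg19 was used here, so sequence without peaks and bases missing from the assembly cannot be told apart in this stretch.

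RUVBL2 peaks were nearly absent from these H3K4ox sites. Of the 26 shared regions of the interval, 1 held a RUVBL2 peak (3.85%, 95% Wilson interval 0.68 to 18.9), against 38.5% of all shared regions and 39.6% of those on chromosome 11. The genome share lies above that confidence interval, which covers counting error only and treats the regions as independent, although they are neighbours. The single region, at 999490 to 1000443, crosses the lower edge of the interval, and its RUVBL2 peak at 999702 to 1000285 scored 61.6. Without it, 0 of 25 shared regions that lay wholly inside held RUVBL2. With the interval extended by 50 kb on each side, 5 of 41 did (12.2%). The other RUVBL2 peak, at 1127012 to 1127607, scored 60.4 and met an H3K4ox peak of replicate 1 alone, at 1126884 to 1127764 with a score of 83.8. Both RUVBL2 peaks stood in the lower part of their list by score, at ranks near 73756 and 76410 of 109607. Each met an H3K4ox peak of at least 1 replicate, as did 81.9% of all RUVBL2 peaks. Between them lay 126.7 kb without RUVBL2, which holds the best and the second H3K4ox site. On chromosome 11, 120 of the 5615 stretches between RUVBL2 peaks were at least that long, and their median was 9390 bp. Above the upper RUVBL2 peak lay a further 213.9 kb without RUVBL2, reaching beyond the interval, and 37 stretches were at least that long.

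H2A.Z was represented by a single weak peak, at 1139551 to 1140091, with a score of 52.8 and a rank of 33824 of 38584. It met an H3K4ox peak of replicate 1, at 1139549 to 1140173 with a score of 53.4, and none of replicate 2, and it lay 921 bp below the third H3K4ox site. Of all H2A.Z peaks, 64.9% met H3K4ox of either replicate. None of the 26 shared regions held H2A.Z, and a count of 0 of 26 allows a share of up to 11.5%, taking 3 counts as the limit (the upper bound of the 95% Wilson interval is 12.9%). The share over the genome was 10.3%, so a lower share was not detectable with this number of regions. Stretches of 216.2 kb below the peak and 201.6 kb above it had no H2A.Z, and on chromosome 11, 157 and 172 of 1633 such stretches were at least as long.

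Both 200 kb flanks held more RUVBL2 than the interval between them. Going by the gene order in RefSeq, AP2A2, a subunit of the clathrin adaptor AP-2, lies before MUC6. TOLLIP, an adaptor of innate immune signalling, and BRSK2, a kinase, follow MUC5B. Only this order was used, so it was not determined which of these genes lie in the flanks or reach into the interval. The interval had 6.67 RUVBL2 peaks per Mb, the lower flank 50 and the upper flank 30.0, from 2, 10 and 6 peaks. The RUVBL2 peak and the H3K4ox region that cross the lower edge count in both the interval and the lower flank. For H2A.Z the densities were 3.33 per Mb in the interval, 10.0 in the lower flank and 15 in the upper flank, from 1, 2 and 3 peaks. With counts this small, and with 1 library per antibody, the order of the flanks is not secure. H3K4ox peaks had the same order of zones as RUVBL2, with a smaller gap between interval and upper flank: there were 108.3 ± 2.4 per Mb in the interval, 207.5 ± 10.6 in the lower flank and 115.0 in each replicate of the upper flank (SD, n = 2). Per 100 H3K4ox peaks there were 6.15 RUVBL2 peaks in the interval, 24.1 in the lower flank, 26.1 in the upper flank and 43.9 over the genome.

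**Figure D3:**
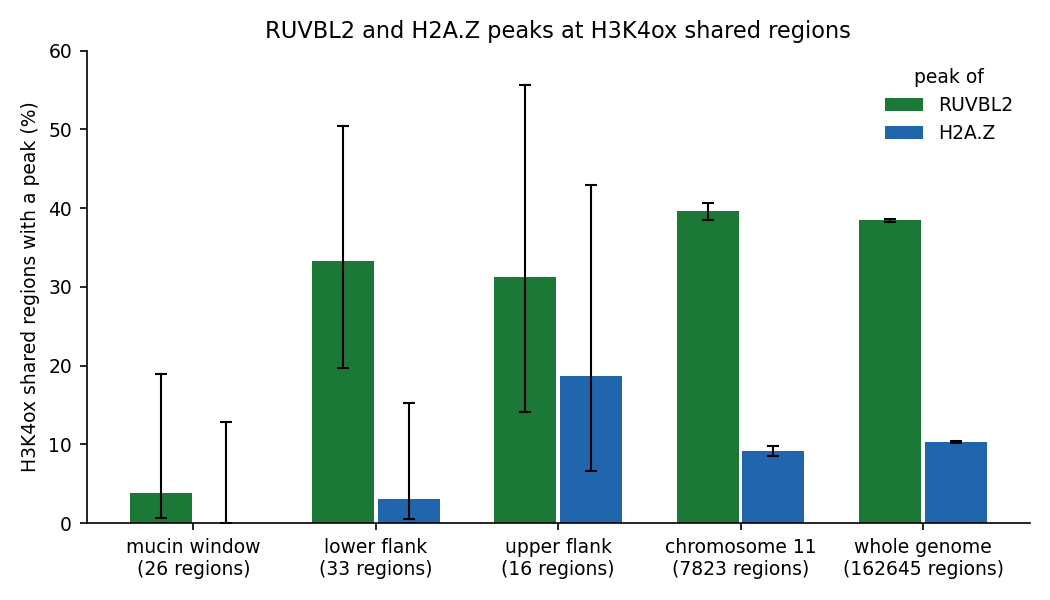
Share of H3K4ox shared regions that held a RUVBL2 peak (green) or an H2A.Z peak (blue), in percent, in the mucin interval, its 200 kb flanks, chromosome 11 and the genome; error bars are 95% Wilson intervals over regions. RUVBL2 stands at 3.85% in the mucin interval, 33.3% and 31.2% in the flanks and 38.5% over the genome.

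By score, the best H3K4ox peak was that of the interval, an order fixed in advance because the interval was selected for this peak. The best H3K4ox peak of the interval scored 3158 in replicate 1 and 3100 in replicate 2. In the lower flank the best scored 319.2 in replicate 1, at 915556 to 917555, and 414.9 in replicate 2, at 934709 to 936402. In the upper flank the best scored 622.8 in replicate 1, at 1361539 to 1362548, and 710.1 in replicate 2, at 1361609 to 1362577. The best RUVBL2 peak scored lowest in the interval, with scores of 61.6 in the interval, 142.6 in the lower flank at 806690 to 808085, and 153.6 in the upper flank at 1399866 to 1401583, against a median of 73.4 in the whole list. The best H2A.Z peaks scored 52.8 in the interval, 85.6 in the lower flank at 922663 to 923343, and 93.5 in the upper flank at 1404712 to 1405447. Shared regions with RUVBL2 numbered 1 of 26 in the interval, 11 of 33 in the lower flank and 5 of 16 in the upper flank, and shared regions with neither RUVBL2 nor H2A.Z numbered 25, 21 and 9. Over the genome 57.4% of shared regions had neither.

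The lower edge of the interval cut through an H3K4ox peak of ordinary strength in each replicate and through a RUVBL2 peak, and the upper edge fell between peaks. The last H3K4ox peak wholly below the interval scored 63.7 in replicate 1 and 118.5 in replicate 2, and the peak that crosses its lower edge scored 85.0 and 98.6. At the upper edge, the last H3K4ox peak inside scored 164.2 and 87.1, and the first outside 63.6 and 73.8.

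Set among 9582 other windows of 300 kb with at least 1 H3K4ox peak, the mucin interval had more H3K4ox and less RUVBL2 than the middle of the range. It had 26 shared regions, against a median of 12, and 19.2% of the windows had at least as many. It had 2 RUVBL2 peaks, against a median of 9, and 8.33% of the windows had 2 or fewer. It had 1 H2A.Z peak, against a median of 3, and 33.5% of the windows had 1 or none. Few windows with at least as many shared regions had as few RUVBL2 peaks. Of the 1838 windows with at least 26 shared regions, 5 (0.272%) had 2 or fewer RUVBL2 peaks, and the median was 22. Of the same windows, 160 (8.71%) had at most 1 H2A.Z peak. This set runs up to 100 shared regions and the interval sits at its lower limit, so these values are not matched for H3K4ox. Among windows with exactly 26 shared regions, the lowest RUVBL2 count was 2, in 1 window, and 5 windows had 3. On chromosome 11, 86 windows had at least 26 shared regions, and none of these had 2 or fewer RUVBL2 peaks. These counts describe 1 interval chosen for its H3K4ox score and 1 RUVBL2 library, and no test was made of them.

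**Figure D4:**
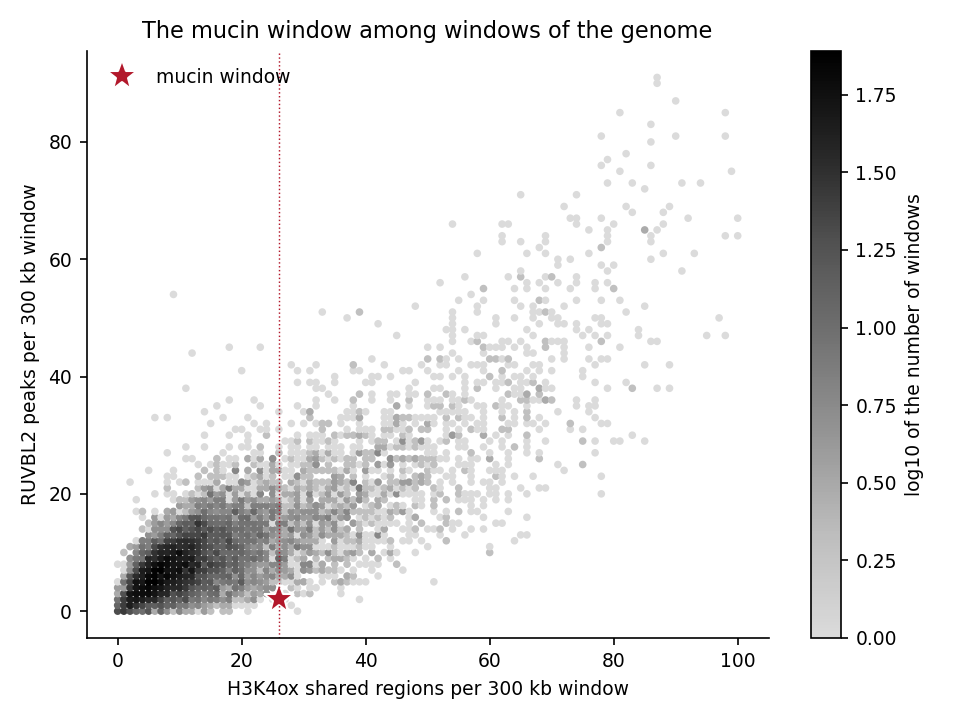
RUVBL2 peaks (y) against H3K4ox shared regions (x) in windows of 300 kb with at least 1 H3K4ox peak; each dot is a pair of counts, shaded by the log10 of the number of windows that have it, the star is the mucin interval and the dotted line marks its 26 shared regions. The star lies at 2 RUVBL2 peaks, at the lower edge of the dots on that line. The median of 22 RUVBL2 peaks is for all windows with at least 26 shared regions, not for those on the line.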

How the data were processed

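Peak names and header lines give MACS as the caller, per the file headers, with version and parameters not given in the sources used here. Per the submitters' processing notes, hg19 was the build, and Bowtie and TopHat are listed without version or role. The score of each peak was used as the authors deposited it, in a unit that no header or label states. The header lines also carry the term multilocus, left undefined. Whether reads that map to several places raise scores in repeats was not tested.

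Overlaps were computed in Python 3.11.15 (pandas 2.3.3, numpy 2.4.6, scipy 1.17.1), and matplotlib 3.10.9 drew the figures. Positions count from 1, and peaks overlapped when they had 1 bp or more in common. Densities over chromosomes use the span between the outermost peaks. Windows of 300 kb were laid from the first base of each chromosome, leaving out those that meet the mucin interval. Ranks average ties. The interval code was tested on simulated data with known overlaps. Samples were grouped by the antibody in their titles. The members, lists and named sites were chosen with earlier results of these data known. Named sites are all H2A.Z and RUVBL2 peaks of the interval, its 10 best H3K4ox sites and the best peak of each list per flank; others were chosen after their values were seen. No test was made, since H2A.Z and RUVBL2 had 1 library each and the interval was chosen by H3K4ox score. Gene order comes from RefSeq on GRCh38.p14, where 4 of 4 members matched, and none of its coordinates were used. The planned list of other mucins needed an hg19 annotation and was not run. Alternatives tried were other overlap rules, score limits, edges, flanks and window starts, and leaving out each H3K4ox replicate.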

Additional observations from a re-analysis of the deposited data

How the results depend on the processing

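Of the 35 alternatives, 25 gave values within the replicate SD, the 95% Wilson interval or 1.5 times the reported value, and 10 did not. Some of these outcomes were fixed in advance, so the counts do not measure robustness. Leaving out 1 H3K4ox replicate cannot move the best site's rank beyond the SD of the same 2 ranks. A value of 0 always fell outside where the reported value was above 0. For the share found in the other replicate, the SD came from 1 overlap counted from either list. Keeping the upper 50% of each list by score lowers densities by design. It left 70.0 H3K4ox peaks per Mb, from 20 of the 32 peaks of replicate 1 and 22 of the 33 of replicate 2. H2A.Z and RUVBL2 then had 0 peaks per Mb, 0% of shared regions held RUVBL2, and 85.9% of H3K4ox peaks were found in the other replicate. With 200 bp at the centres that last share was 76.9%. Extending the interval by 50 kb on each side gave 5.00 H2A.Z and 12.5 RUVBL2 peaks per Mb, and the share of shared regions with RUVBL2 became 12.2% (5 of 41), against 3.85% (1 of 26). Counting peaks by their centre gave 3.33 RUVBL2 peaks per Mb. Regions wholly inside the interval gave 0% with RUVBL2, a choice made after seeing the data. These RUVBL2 and H2A.Z changes rest on few peaks. Leaving out 1 H3K4ox replicate gave 106.7 to 110.0 H3K4ox peaks per Mb, 3.03% to 6.25% of regions with RUVBL2, 0% to 3.12% with H2A.Z, and a rank of 2 to 12 for the best site. Windows that start 150 kb further on gave 0.325%, from 6 of 1844. No paired analysis was possible because no result came from a test and no list with a partner of the same replicate number was compared. Unknown depth limits what the absence of a peak means.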

Other observations

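The 5 windows of 300 kb that resembled the mucin interval, with at least 26 H3K4ox shared regions and 2 or fewer RUVBL2 peaks, came from 2 chromosomes. One was the stretch 77100001 to 77400000 of chromosome 17, and the other 4 were all on chromosome 15, where they began at 63600001, 74400001, 79200001 and 101400001, and held 39, 27, 28 and 29 shared regions. Chromosome 15 had 90 windows with at least 26 shared regions, and their median was 10.5 RUVBL2 peaks, against 23.5 in the 86 such windows of chromosome 11. These windows were singled out after their values were seen, and the difference was not tested.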
